A study of Homo sapiens with 16 samples.

Results

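Ribosome assembly and rRNA processing factors are the nucleolar proteins that fold, modify and cut the rRNA precursor while ribosomal proteins bind it. The 59 genes described here were chosen by name as nucleolar assembly factors, with ribosomal proteins left out. All 59 were found among the 12676 genes of the count table. Their expression was compared between H1299 cells carrying a non-targeting hairpin (shNT, 2 libraries) and H1299 cells carrying a hairpin against YEATS2 (shYEATS2, 2 libraries). H1299 is an established line from a human lung carcinoma, and YEATS2 is a subunit of the ATAC histone acetyltransferase complex that reads acetylated histones. The series asks which genes need YEATS2, by mRNA sequencing of these duplicates and by ChIP-seq of histone marks and of the ATAC subunit ZZZ3, which was not analysed here. Both groups received lentivirus made in 293T cells with polybrene at 8 µg/ml, then puromycin at 2 µg/ml from 48 h onward. Selection lasted 4 to 7 days by the sample records, while the methods of the study give a shorter range. The labels do not name the YEATS2 hairpin of these libraries, and the study describes its RNA-seq duplicates with a single hairpin, shY2-1. The study also reports RNA-seq with an independent hairpin that lowered YEATS2 partially, with part of the lower genes shared. It further reports qRT-PCR of ribosomal protein genes with both hairpins, and their rescue by hairpin-resistant YEATS2. Those data were not used here. An action of the hairpin on a transcript other than YEATS2 cannot be told apart from the loss of YEATS2 in this comparison.

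Ribosome production starts in the nucleolus, where RNA polymerase I makes a long precursor that holds the rRNA of both subunits. Small nucleolar ribonucleoproteins (snoRNPs) modify it: box C/D particles methylate riboses and box H/ACA particles convert uridines to pseudouridines. The small subunit (SSU) processome then folds and cuts the part that becomes the small subunit. Separate sets of factors build and export the large subunit precursor. Growing tumour cells make many ribosomes, and MYC, together with its partner MAX, is known to bind E-boxes (CACGTG) in the promoters of many of these genes.

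E-boxes, which the choice by name had not used, were more frequent in the promoters of these genes than over all genes of the count table. Most of the genes with a promoter window still lacked one. In RefSeq promoter windows of 300 bases (250 before the start and 50 after it, on GRCh38.p14), 51 of the 59 genes had an entry. BOP1, MPHOSPH10, NOLC1, NOP58, RRP12, RRP1B, RRS1 and UTP23 had none. The E-box CACGTG, which reads the same on both strands, was present in 20 of the 51 (39.2%), against 13% of the 9754 genes of the count table with an entry and 8.77% of all 27305 genes of the promoter table. The stretches below are shown because they put the E-box of genes that fell after YEATS2 knockdown (UTP14A, NOP2, EBNA1BP2, UTP20, PES1, GAR1) beside that of FBL, which lay just outside the threshold, and of NOP10 and IMP4, whose changes were among the smallest. They run 5′ to 3′ on the strand of the gene, and the capitals mark the E-box.
UTP14A: accttgggcCACGTGgaaaccaggggc
NOP2: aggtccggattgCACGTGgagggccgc
EBNA1BP2: gcgattcggtggCACGTGga
UTP20: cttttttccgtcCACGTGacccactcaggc
PES1: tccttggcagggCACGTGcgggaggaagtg
GAR1: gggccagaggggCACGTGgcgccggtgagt
FBL: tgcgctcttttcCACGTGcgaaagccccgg
NOP10: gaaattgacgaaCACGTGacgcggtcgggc
IMP4: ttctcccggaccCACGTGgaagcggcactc

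Each stretch was placed on GRCh37 (hg19), the build of the count table, through the whole promoter window that holds it. That window had 1 exact match on its chromosome for each gene shown, and matches of the stretches alone were not counted. UTP14A's lies at chrX:129039890-129039916 on the plus strand, NOP2's at chr12:6677408-6677434 on the minus strand and EBNA1BP2's at chr1:43637912-43637931 on the minus strand. UTP20's lies at chr12:101673861-101673890 (plus), PES1's at chr22:30987867-30987896 (minus) and GAR1's at chr4:110736937-110736966 (plus). FBL's lies at chr19:40336996-40337025 (minus), NOP10's at chr15:34635331-34635360 (minus) and IMP4's at chr2:131100473-131100502 (plus). Counted with the RefSeq start as 0, the first base of the E-box lay at 35 in NOP2, 42 in EBNA1BP2, 31 in GAR1, 13 in PES1, 6 in FBL and 15 in IMP4, all downstream of the start. It lay at -10 in UTP20, -11 in NOP10 and -241 in UTP14A. IMP4 and NOP10 each held a further E-box upstream, at -203 and -170, which is not shown above. EBNA1BP2 held a further E-box, also not shown, at chr1:43638461-43638490 (minus). It lay in a window with another RefSeq start, at -237 from that start. A gene with several windows was counted as holding the motif if any of them held it. The other genes with an E-box were BYSL, GNL2, GNL3, LTV1, NOC3L, NOP14, PNO1, RRP9, UTP18, WDR43 and WDR46.

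Most genes with an E-box held one close to the start. Between 25 bases before the start and the end of the window, 19 of the 51 genes (37.3%) held one, against 339 of 9754 genes of the count table (3.48%). UTP14A was the only gene of the 20 with its E-box solely further upstream. In the first 25 bases from the start onward, 10 of the 51 (19.6%) held one, against 1.1% of the genes of the count table.

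**Figure D1:**
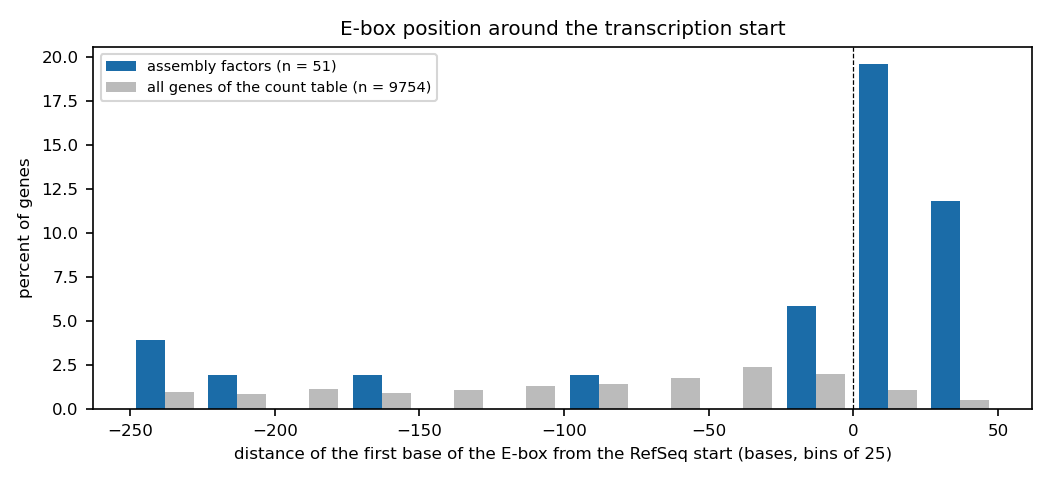
Percent of genes whose promoter window held an E-box in each bin of 25 bases, by the distance of its first base from the RefSeq start (x axis, bases), for 51 assembly factors (blue) and the 9754 genes of the count table with a window (grey). The tallest blue bar, 19.6%, covers the first 25 bases from the start, where the grey bar stands at 1.1%.

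An E-box was present in 6 of the 14 genes with a window that were called lower after knockdown (42.9%), a call being an FDR under 0.01, and in 14 of the 37 that were not called (37.8%). The 20 genes with an E-box had a median log2 fold change of -0.53 and the 31 without had one of -0.40. Neither the shares nor the medians were tested against each other. The motif CCGGAA (searched on both strands), the core of an ETS factor site, was present in 30 of the 51 genes with a window (58.8%). The shares were 36.2% of genes of the count table and 20.1% of all genes. Its holders had a median of -0.42 and the 21 others -0.48. MYC itself held 13062 and 11530 scaled reads (reads adjusted to a common library size) in shNT against 12146 and 10744 in shYEATS2, so the groups overlapped (log2 fold change -0.10, SE 0.11, FDR 0.467). MAX held 1972 and 1456 against 2447 and 2569 (0.55, SE 0.15, FDR 0.0224). The FDR is the Benjamini-Hochberg adjusted p of edgeR's quasi-likelihood test over all 12676 genes. Neither gene passed it at 0.01, and MYCN had no row among the genes used here. DESeq2 and edgeR's exact test each called 1 of the pair higher, and MAX was the gene above 0, while limma-trend called 0.

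The libraries held 34718921 to 39417787 reads in genes. TMM factors, which adjust for differences in composition, were 0.952 to 1.05. The knocked-down gene followed the labels: YEATS2 held 4483 and 4104 scaled reads in shNT and 665 and 673 in shYEATS2 (log2 fold change -2.68, SE 0.10, FDR 0.000583). Of 5 markers for the line, KRT8, KRT18, VIM and CDH2 were listed, EPCAM had no row, and none was called by the quasi-likelihood test, while DESeq2 and the exact test each called 1 lower. They moved in both directions: KRT18 was at -0.81 (FDR 0.0283) and VIM at -0.37 (FDR 0.0390), against 0.36 for CDH2 (FDR 0.0261) and 0.31 for KRT8 (FDR 0.0958). Their sum, mostly VIM, was 143583 and 146084 scaled reads in shNT and 127654 and 100772 in shYEATS2. No row was found for 6 markers of blood cells and endothelium. The labels number the libraries without saying how they were raised, and the study describes them as independent biological replicates. Fewer cells of a type and less RNA per cell cannot be told apart in bulk libraries.

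The assembly factors were mostly lower after YEATS2 knockdown. Of the 59, 18 were called lower (30.5%), against 12.5% of all genes tested, and 0 were called higher, against 12.9% of all genes. At an unadjusted p under 0.05, 44 were lower (27.8% of all genes) and 0 higher (28.7% of all genes), and DESeq2, edgeR's exact test and limma-trend also called 0 higher. In 50 of the 59 (84.7%) both shYEATS2 libraries lay below both shNT libraries, against 39.8% of all genes. NOB1 was the only one for which both lay above, against 39.7% of all genes. Their log2 fold changes ran from -2.72 to 0.13 around a median of -0.48, while all genes had a median of -0.00. A fold change of -1 or below on the log2 scale was found for 3 of the 59, UTP14A, RRS1 and NOP56. That is close to the share of all genes, 5.03%.

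Other tests called more of them lower: DESeq2 34 (17.3% of all genes) and edgeR's exact test 36 (19.7% of all genes). The study used the exact test too, but it was run here on the TMM scale, so these calls are not the study's own. At FDR under 0.05 the quasi-likelihood test called 41 (23.8% of all genes). Single libraries moved the number of calls as well. Without shNT replicate 1 the number called lower was 4 (6.71% of all genes), and without shYEATS2 replicate 2 it was 7 (8.36%). Without shYEATS2 replicate 1 it was 29 (16%), and without shNT replicate 2 it was 16 (7.25%). The median stayed between -0.60 and -0.37 in these 4 fits. UTP14A, RRS1, NOP58 and EBNA1BP2 were the 4 genes called in each of these fits and under every other alternative tried. Scaling by total counts, which moved the median of all genes from -0.00 to 0.12, left 53 of 59 below 0 and 10 called lower (9.2% of all genes).

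**Figure D2:**
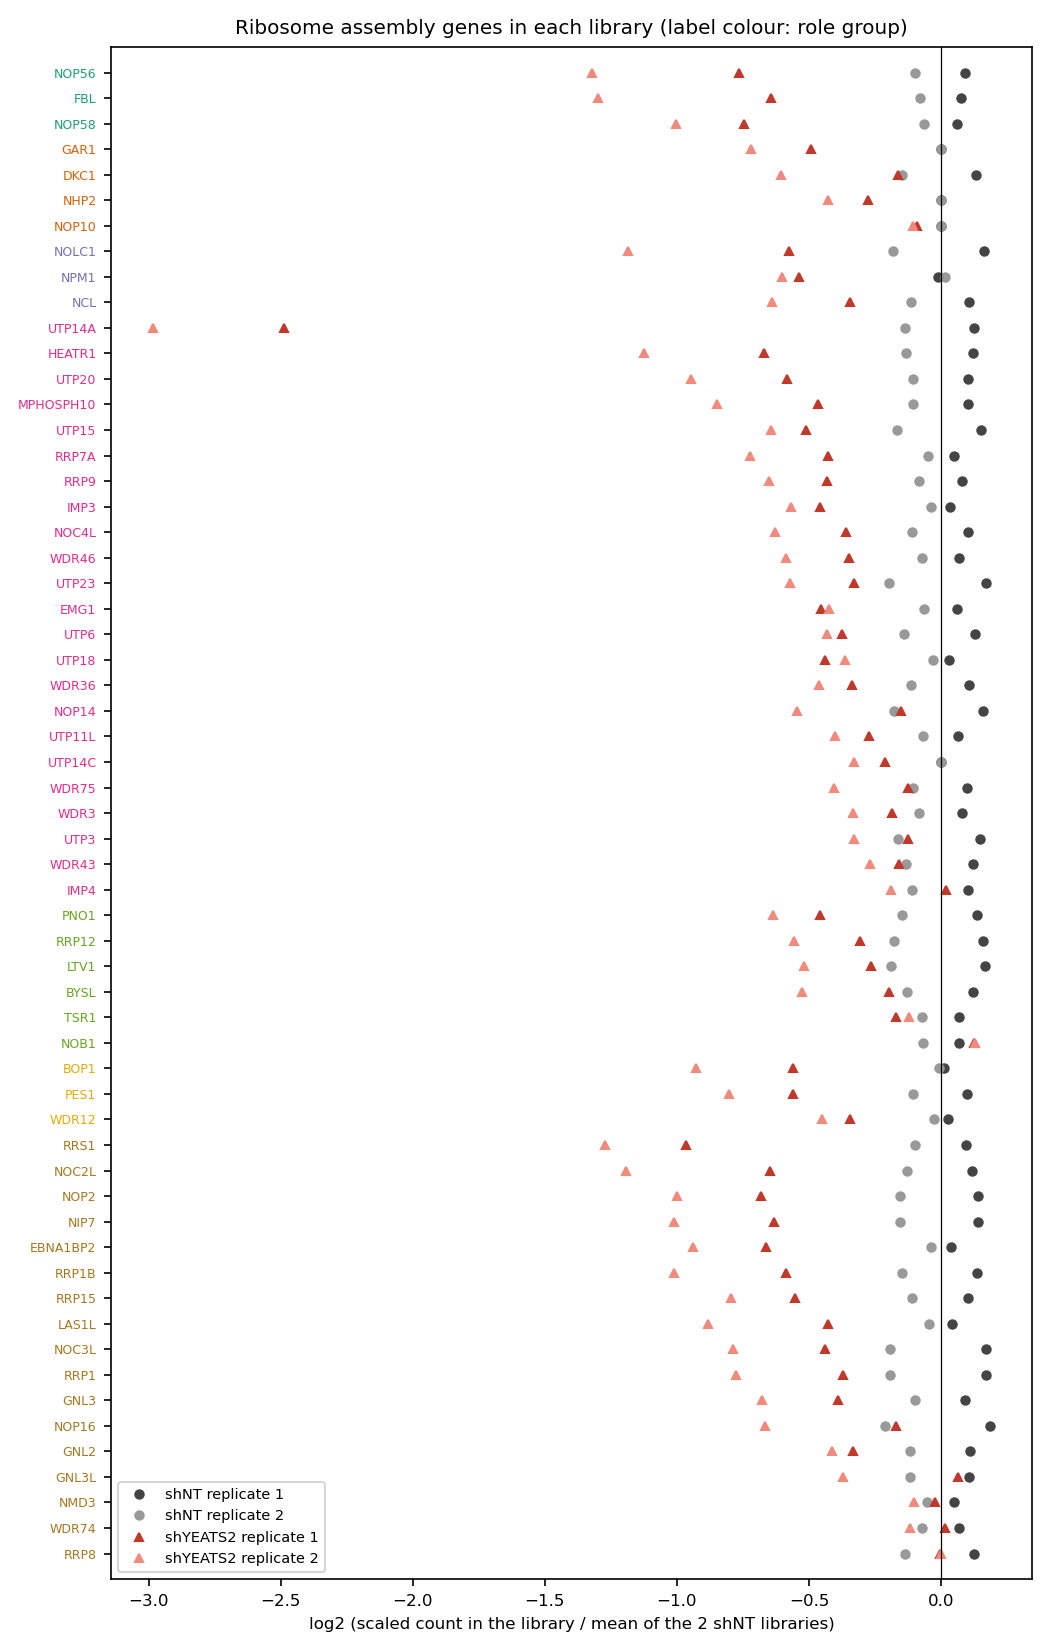
Scaled reads of each of the 59 genes in each library, as log2 of the ratio to the mean of the 2 shNT libraries (x axis), with shNT as circles, shYEATS2 as triangles and label colours for the role groups. In 50 rows both triangles lie left of both circles, UTP14A stands apart at the left, and NOB1 is the only row with both triangles right of both circles.

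The assembly factors took up a smaller part of the reads in the knockdown. Together they held 1.263% and 1.162% of the reads of the shNT libraries and 0.963% and 0.822% of those of the shYEATS2 libraries. Without NPM1 and NCL, the 2 with the most reads among those that organise the nucleolus, the shares were 0.787% and 0.699% against 0.595% and 0.488%. The groups did not overlap either way. The replicates also differed from each other within each group. In shNT, 55 of the 59 (93.2%) were higher in replicate 1 than in replicate 2, with a median log2 ratio of 0.21, and in shYEATS2 54 (91.5%) were, with a median of 0.25. Over all genes the shares were 49.9% and 50.6%.

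The box C/D snoRNP genes had the lowest median of the role groups, -0.94. Of the 3, 2 were called lower, against 12.5% of all genes. All 3 lay below both controls, against 39.8% of all genes. NOP56 (chr20:2633239-2639039), a core protein that bridges the particle, held 14506 and 12721 scaled reads in shNT and 8018 and 5443 in shYEATS2. The libraries did not overlap, and the log2 fold change was -1.02 (SE 0.18, FDR 0.00555). NOP58 (chr2:203130459-203168384), its partner in the particle, held 6835 and 6266 against 3909 and 3269 (-0.87, SE 0.12, FDR 0.00230). FBL (chr19:40325098-40337019) encodes fibrillarin, the enzyme that methylates the riboses. It held 26462 and 23782 scaled reads against 16078 and 10199, again with no overlap. The 2 shYEATS2 libraries of FBL lay further apart than those of NOP58, and its log2 fold change of -0.94 (SE 0.20, FDR 0.0105) just missed the threshold. Without shNT replicate 1 the FDR of NOP56 was 0.0108, and NOP58 was the only call of the 3, while DESeq2 and the exact test called all 3.

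The box H/ACA genes moved unequally, and 1 of 4 was called lower (25%, against 12.5% of all genes). GAR1 (chr4:110736666-110745896), a core protein of the particle, held 1873 and 1876 scaled reads in shNT and 1332 and 1137 in shYEATS2 (log2 fold change -0.60, SE 0.11, FDR 0.00576). That call was lost without shNT replicate 1, shNT replicate 2 or shYEATS2 replicate 2 (FDR 0.0233, 0.0232 and 0.0145) and with total counts (0.0108). NHP2, another core protein, held 4277 and 4273 against 3530.4 and 3178 (-0.35, SE 0.10, FDR 0.0246). DKC1 encodes dyskerin, the pseudouridine synthase that is mutated in dyskeratosis congenita. Its values were 10434 and 8589 scaled reads against 8490 and 6253, so the higher shYEATS2 library lay just under the lower shNT library (-0.37, SE 0.17, FDR 0.108). NOP10, the smallest of the core proteins, held 6214 and 6219 against 5834 and 5779. Its groups did not overlap, since its replicates lay close together, but the log2 fold change was only -0.10 (SE 0.09, FDR 0.379), with a 95% interval of -0.31 to 0.11.

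Of the abundant proteins that organise the nucleolus, 1 of 3 was called lower, against 12.5% of all genes. All 3 lay below both controls, against 39.8% of all genes. NPM1 (chr5:170814120-170838814) encodes nucleophosmin, which forms the outer layer of the nucleolus where large subunits mature. It held 114281 and 116403 scaled reads in shNT and 79495 and 76029 in shYEATS2 (log2 fold change -0.57, SE 0.09, FDR 0.00359). NCL encodes nucleolin, which binds the rRNA precursor early. It held 67608 and 58178 against 49575 and 40364 (-0.48, SE 0.13, FDR 0.0234), and DESeq2 and edgeR's exact test did call it (FDR 0.00246 and 0.00495). NOLC1 encodes a chaperone of snoRNPs. It held 16802 and 13250.0 against 10081 and 6599.9 (-0.85, SE 0.21, FDR 0.0164), the widest spread between replicates of the 3. The call of NPM1 and both sizes depended on the processing: with cyclic loess, a scaling that follows intensity, NPM1 and NCL were both at -0.15 (FDR 0.287 and 0.351). Without either shNT library the FDR of NPM1 was 0.0207 or 0.0264, with its log2 fold change at -0.59 or -0.55. NPM1 has 49 named pseudogenes in the annotation, so reads from its copies may be split among rows.

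UTP14A stood apart from every other assembly factor. The gene (chrX:129040097-129063737, plus strand) encodes an SSU processome protein that acts with a helicase late in small subunit processing. It held 2365 and 1973 scaled reads in shNT and 386 and 274 in shYEATS2, a mean of 2169 ± 277 (SD, n = 2) against 330.1 ± 79.3. The log2 fold change was -2.72 (SE 0.19, FDR 0.000793, 95% interval -3.16 to -2.28), or 6.57-fold lower. Its decrease was close in size to that of YEATS2 itself and was the third largest among genes with a mean of at least 100 reads. The next largest decrease among the assembly factors was that of RRS1, -1.11 on the log2 scale.

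UTP14C, a copy of UTP14A that arose by retroposition, was not called. It lies at chr13:52598827-52607736 and held 611 and 612 scaled reads in shNT against 528 and 486 in shYEATS2 (log2 fold change -0.27, SE 0.12, FDR 0.0965). The ratio of UTP14A to UTP14C reads was 3.870 and 3.225 in shNT and 0.732 and 0.564 in shYEATS2, so UTP14A passed from the more to the less counted of the pair. The coding sequences, 2313 and 2298 bases long, were identical at 94.8% of 2295 aligned bases. Exact stretches of 50 bases common to both covered 11.8% of start positions in the UTP14A transcript and 5.31% in that of UTP14C. For stretches of 100 bases the shares were 3.65% and 1.62%. Only reads that lie wholly within a common stretch cannot be assigned to either gene. All of the exon bases of UTP14C also lie in exons of another protein-coding gene, so its count is uncertain.

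The other SSU processome genes had a narrower range. Of the 23 genes of this group, 5 were called lower (21.7%, against 12.5% of all genes). Of the same genes, 20 lay below both controls (87%, against 39.8% of all genes), and the median was -0.44. HEATR1 (chr1:236712305-236767816), a subunit that joins rRNA transcription to processing, held 4356 and 3657 scaled reads in shNT and 2515 and 1838 in shYEATS2 (log2 fold change -0.88, SE 0.17, FDR 0.00659). UTP20 (chr12:101673883-101780396), a long scaffold protein, held 6003 and 5195 against 3734 and 2905 (-0.75, SE 0.14, FDR 0.00666). Neither gene overlapped between groups. The number called in this group was 1 without shNT replicate 1 or shYEATS2 replicate 2, 9 without shYEATS2 replicate 1, 3 with total counts, 12 with DESeq2 and 14 with the exact test. The remaining 2 calls were smaller. IMP3, which with IMP4 and MPHOSPH10 forms a complex that joins the U3 snoRNA to the precursor, had a log2 fold change of -0.51 (FDR 0.00792). RRP7A, a processome subunit, was the last to pass the threshold, with 2699.6 and 2521 scaled reads in shNT and 1938 and 1583 in shYEATS2 (-0.57, SE 0.12, FDR 0.00991).

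The values of proteins of 1 processome complex are given side by side, and differences between them were not tested. MPHOSPH10 had a log2 fold change of -0.65 and IMP4 of -0.08, with IMP3 between them. Of the subunits that bind the precursor first together with HEATR1, UTP15 was at -0.57, WDR75 at -0.26 and WDR43 at -0.21. In the complex of WDR3, WDR36, UTP6 and UTP18, which joins next, the values ran from -0.40 for UTP6, UTP18 and WDR36 to -0.26 for WDR3. None of these 4 genes was called by the quasi-likelihood test, but the exact test called UTP18, UTP6 and WDR36 (FDR 0.00194, 0.00919 and 0.00870) and DESeq2 called UTP18 (FDR 0.00314). RRP9, the U3 snoRNP protein that lay just outside the threshold, held 2531 and 2263 scaled reads against 1779 and 1525 (-0.54, SE 0.12, FDR 0.0101). EMG1, a methyltransferase of the small subunit rRNA, was also just outside it, with 5079 and 4655 against 3554 and 3627 (-0.44, SE 0.10, FDR 0.0102). NOC4L at -0.49 and NOP14 at -0.34 encode proteins that bind each other, and the remaining subunits were WDR46 at -0.46, UTP23 at -0.45, UTP11L at -0.33 and UTP3 at -0.22.

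No factor of the later small subunit precursor was called by the quasi-likelihood test, against 12.5% of all genes called lower. Of these 6, 5 lay below both controls (83.3%, against 39.8% of all genes), and their median was -0.37. PNO1, which holds the rRNA end that is still to be cut, was at -0.54 (FDR 0.0137), the largest change of the 6, and was called by DESeq2 (FDR 0.00128) and the exact test (FDR 0.000884). RRP12, an export factor, was at -0.43, LTV1, an assembly factor released late, at -0.39 and BYSL (bystin) at -0.35. TSR1, a protein related to translation GTPases, was at -0.15. NOB1, the nuclease that makes the final cut, held 2983 and 2713 scaled reads in shNT and 3109 and 3112 in shYEATS2 (0.13, SE 0.10, FDR 0.310). It was the only assembly factor with a fold change above 0, although with total counts 5 others were also above 0, and its 95% interval ran from -0.10 to 0.36.

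**Figure D3:**
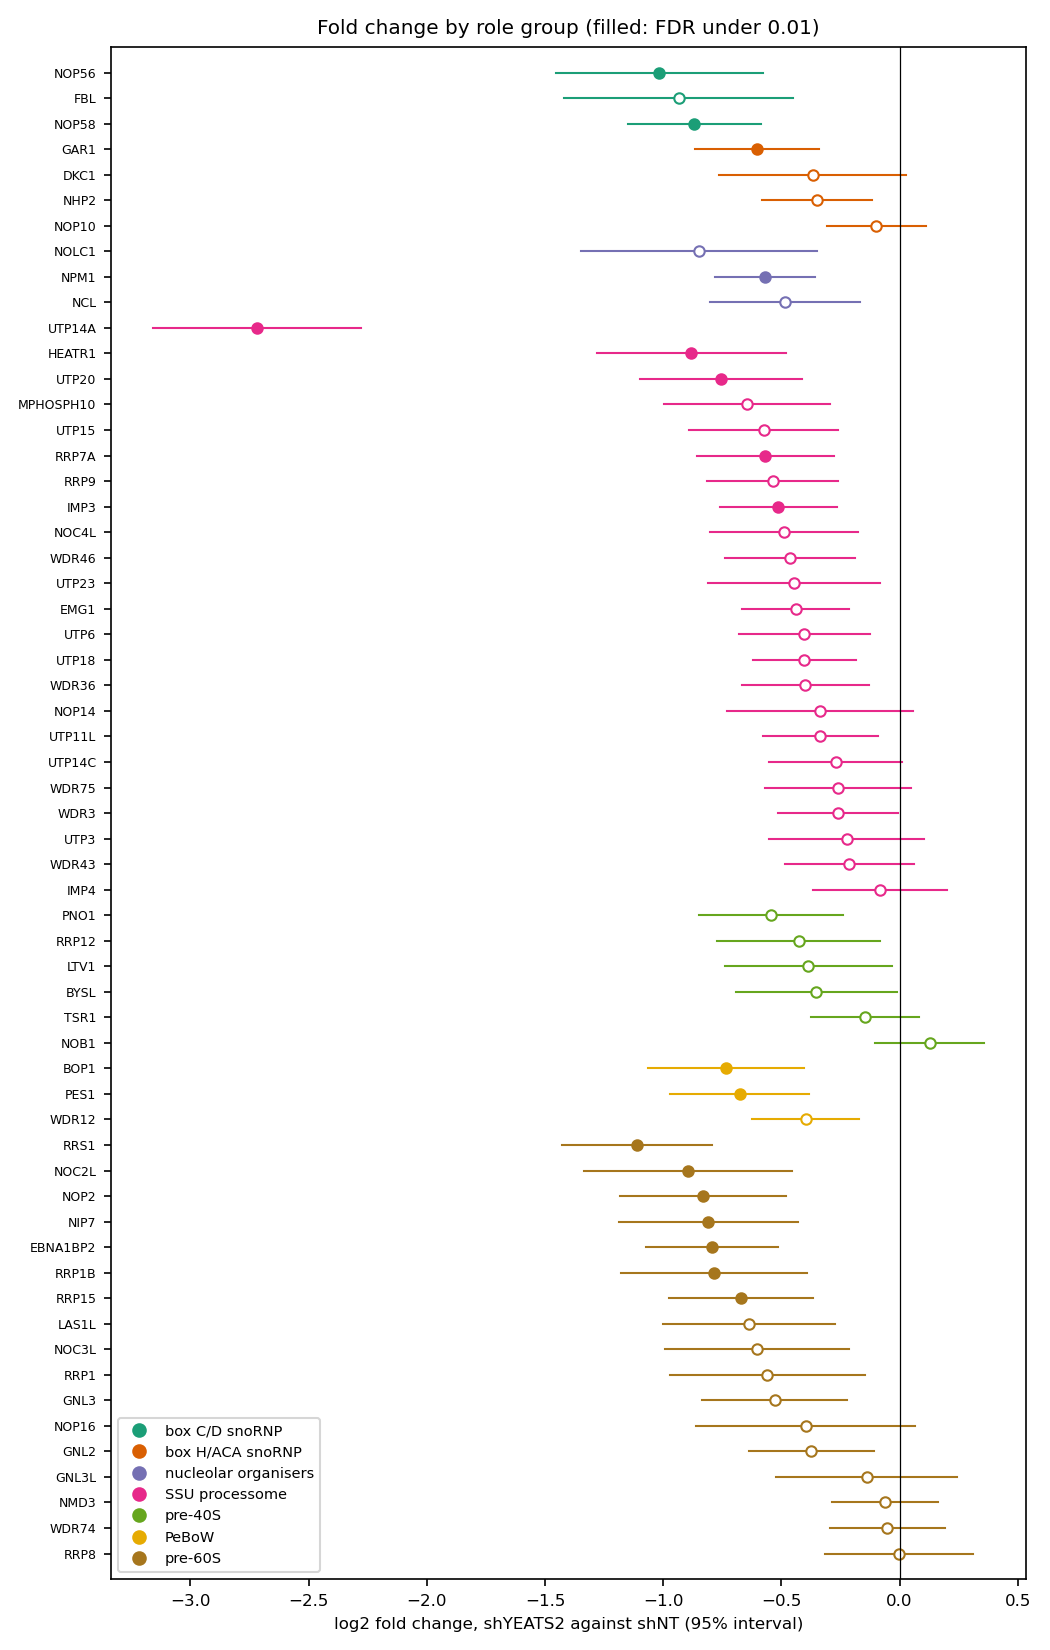
Log2 fold change of each gene, shYEATS2 against shNT (x axis), with its 95% interval as a bar and a filled point where FDR was under 0.01, coloured by role group. The 18 filled points all lie left of 0, UTP14A lies at -2.72, and no point of the later small subunit precursor group is filled.

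The PeBoW complex prepares the large subunit precursor for the cut between its rRNAs. It had 2 of 3 subunits called lower (66.7%, against 12.5% of all genes). All 3 lay below both controls, against 39.8% of all genes. BOP1 (chr8:145486055-145515082) held 1486 and 1467 scaled reads in shNT and 1001 and 776 in shYEATS2 (log2 fold change -0.73, SE 0.14, FDR 0.00651). PES1 (chr22:30972612-31003070), known as pescadillo, held 6285 and 5457 against 3983 and 3363 (-0.68, SE 0.12, FDR 0.00571). WDR12 held 2887 and 2776 against 2229 and 2071 (-0.40, SE 0.10, FDR 0.0146). Replicates of the shNT group lay close together for BOP1 and WDR12, and none of the 3 overlapped between groups. The number called was 0 without shNT replicate 1 or shYEATS2 replicate 2, 1 without shNT replicate 2 or with total counts, and 3 with DESeq2 and the exact test.

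Among 17 other factors of the large subunit, 7 were called lower (41.2%, against 12.5% of all genes), 12 lay below both controls (70.6%, against 39.8%), and the median was -0.60. The number called was 2 without shNT replicate 1 or shYEATS2 replicate 2, 3 with total counts, and 11 without shYEATS2 replicate 1, with DESeq2 and with the exact test. RRS1 (chr8:67341249-67342968), which helps to place the 5S rRNA particle, held 5945 and 5204 scaled reads in shNT and 2855 and 2305 in shYEATS2 (log2 fold change -1.11, SE 0.13, FDR 0.00166). NOC2L (chr1:879583-894689), which takes part in moving precursors out of the nucleolus, held 12247 and 10340.5 against 7203 and 4943 (-0.90, SE 0.18, FDR 0.00863). NOP2 (chr12:6666029-6677857), a methyltransferase of the large subunit rRNA, held 9121 and 7419 against 5153 and 4140.3 (-0.83, SE 0.15, FDR 0.00519). In these 3 genes the higher shYEATS2 library lay well under the lower shNT library. The other 4 calls were NIP7 (-0.81), needed for rRNA processing, EBNA1BP2 (-0.79), an early assembly factor, RRP1B (-0.78) and RRP15 (-0.67).

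The large subunit factors that the quasi-likelihood test did not call spanned a wide range. Of them, LAS1L, NOC3L, RRP1 and GNL3 were called lower by both DESeq2 and the exact test. LAS1L, the nuclease that cuts between the large subunit rRNAs, was at -0.64 on the log2 scale, and NOC3L, a partner of NOC2L, at -0.60. RRP1 was at -0.56, against -0.78 for its paralog RRP1B. The GTPases GNL3 (nucleostemin), GNL2 and GNL3L were at -0.53, -0.37 and -0.14. NOP16 was at -0.40. NMD3, the adaptor that takes the large subunit through the nuclear pore, was at -0.06 (95% interval -0.29 to 0.16) and WDR74 at -0.05 (-0.30 to 0.19). RRP8, which methylates a base of the large subunit rRNA, was at -0.00 (-0.32 to 0.31), and in RRP8, WDR74, NMD3, GNL3L and NOP16 the groups overlapped. Whether export factors differed from the rest was not tested.

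Levels differed far more between the genes than between the groups. In RPKM (reads per kilobase of transcript, scaled for library size), the shNT mean ran from 2399 for NPM1 to 2.49 for RRP8, with a median of 42.7. After NPM1 came FBL at 613 ± 46.3 (SD, n = 2), NCL at 440.0 ± 46.6, EBNA1BP2 at 383 ± 13.6, NOP10 at 337 ± 0.213 and NOP56 at 195 ± 18.1. UTP14A stood at 23.8 ± 3.03 and UTP14C at 3.04 ± 0.00242. In the order of levels, only 15 of the 58 neighbouring pairs were separated beyond the spread of the shNT replicates. Across the 59 genes, which share the same 4 libraries, the shNT level and the log2 fold change were weakly related (Pearson r = -0.14, Spearman rho = -0.21), a description over genes with no test.

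**Figure D4:**
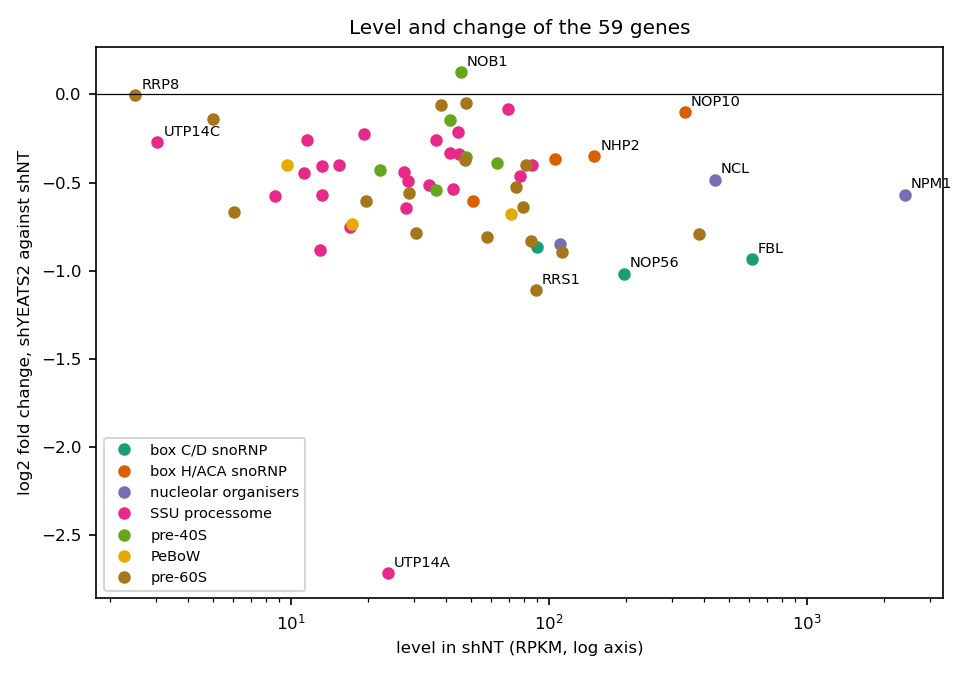
Level in shNT (x axis, RPKM, log scale) against log2 fold change (y axis) for the 59 genes, coloured by role group. Genes from 2.49 to 2399 on the level axis lie mostly between 0 and -1.11, and UTP14A lies below them at -2.72 with a level of 23.8.

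Some counts could hold reads of other genes. More than 10% of the exon bases of 14 genes also lie in exons of another protein-coding gene, among them EMG1 (66.7%), NOP2 (54.4%) and IMP3 (31.7%), and their counts are uncertain. These 14 had 6 calls and a median of -0.44, and the 45 others had 12 calls and a median of -0.49. Of all genes, 12.5% were called lower, which is the share to set beside each count of calls here. Named pseudogenes exist for 14 genes, and the 35 with neither feature had 8 calls and a median of -0.46. Genes for snoRNAs lie inside 7 of the factors: NOP56, NOP58, NCL, GNL3, DKC1, WDR43 and TSR1. These 7 had 2 calls and a median of -0.48, and the 52 others had 16 calls and a median of -0.48.

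The rest of the ribosome production machinery is described by 4 further lists. Of their 101 genes in the table, 16 were called lower (15.8%, against 12.5% of all genes) and 1 higher (12.9% of all genes), 71.3% lay below both controls (39.8% of all genes), and the median was -0.32. The other small subunit genes had 9 of 32 called lower (28.1%) and a median of -0.34, led by the acetyltransferase NAT10 (-1.08, SE 0.19, FDR 0.00537), and 1 called higher, the kinase RIOK3 (0.71, SE 0.13, FDR 0.00587). The number called lower among these 32 was 1 with total counts and 12 with DESeq2 and with the exact test. It also moved when 1 library was left out. The other large subunit genes had 2 of 34 called (5.88%, under the share of all genes), MAK16 (-0.79, SE 0.17, FDR 0.00976) and CCDC86 (-0.71, SE 0.14, FDR 0.00757), with a median of -0.32. DESeq2 and the exact test each called 11 of these 34, and the number was 8 without shYEATS2 replicate 1, 1 without shYEATS2 replicate 2 and 0 without shNT replicate 1 or with total counts. The RNA exosome, which trims rRNA ends, had 3 of 19 called, led by EXOSC9 (-0.98) and EXOSC3 (-0.65), with a median of -0.22. Its number was 6 with DESeq2 and without shYEATS2 replicate 1, 7 with the exact test, 2 without shNT replicate 2, and 1 without shNT replicate 1, without shYEATS2 replicate 2 or with total counts. The RNA polymerase I machinery had 2 of 16 called (12.5%, the share of all genes), CD3EAP (-1.25), a polymerase subunit, and UBTF (-0.63), which opens rDNA chromatin, with a median of -0.34. Here DESeq2 and the exact test each called 6, and the number was 5 without shYEATS2 replicate 1, 1 without shNT replicate 2 or shYEATS2 replicate 2 and 0 without shNT replicate 1. Whether the 59 factors differed from these lists was not tested.

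**Figure D5:**
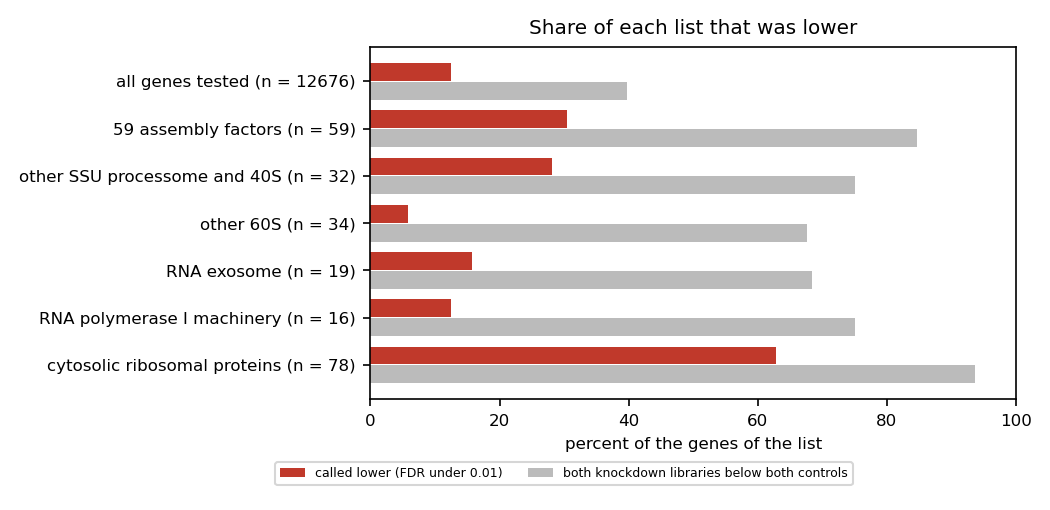
Percent of the genes of each list (x axis) called lower at FDR under 0.01 (red) and with both shYEATS2 libraries below both shNT libraries (grey), for all genes, the 59 assembly factors and 5 other lists. The assembly factors stand at 30.5% and 84.7%, against 12.5% and 39.8% for all genes, and the ribosomal protein genes have the longest bars.

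The products that these factors assemble, the cytosolic ribosomal proteins, were called lower in 49 of 78 genes (62.8%, against 12.5% of all genes). Their median was -0.75, and the largest changes were those of RPS7 (-1.62, SE 0.11, FDR 0.000793) and RPL27 (-1.47, SE 0.10, FDR 0.000793). Markers of dividing cells moved with the assembly factors. All 8 of 8 fell (AURKA, BUB1, CCNB1, CDK1, MKI67, PCNA, PLK1 and TOP2A), with a median of -1.42, and none was at 0. Their sum was 97469 and 107305 scaled reads in shNT and 39264 and 37602 in shYEATS2. Between the shNT replicates the sum was lower in replicate 1, where 55 of 59 assembly factors were higher. Between the shYEATS2 replicates the sum was higher in replicate 1, where 54 assembly factors were higher. The markers differed there: BUB1, CDK1, MKI67, PCNA and TOP2A were higher in shYEATS2 replicate 1, and AURKA, CCNB1 and PLK1 were lower. The part of cell division in the lower levels of the assembly factors was not tested.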

How the data were processed

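Poly(A) RNA of H1299 cells was sequenced (TruSeq mRNA kit). The authors deposited 1 table with read counts per gene for 2 shNT and 2 shYEATS2 libraries, made with HTSeq on hg19. The methods name the RNA-Seq unified mapper and the submitters' processing notes list TopHat2 2.0.10, and which one made this table is not given in the sources used here. The table's own fold changes, p-values and FDR were not used. Each of the 12676 listed genes had at least 101 reads in some library. Counts were scaled with TMM and tested with edgeR 4.0.16 (glmQLFit, glmQLFTest, R 4.3.3, limma 3.58.1), with Benjamini-Hochberg adjustment over all genes and FDR under 0.01 as the call. A minimum of 10 reads in 2 libraries removed no gene. The exact test of edgeR, on the TMM scale, and DESeq2 1.42.0 were among the alternatives. The study used the exact test too, but its scaling is not stated, and its numbers of genes called differ from those found here. The scripts were tested on simulated data. Coordinates and overlaps come from GENCODE on GRCh37, which matched 12465 of the gene IDs (98.3%). Transcript lengths are of the MANE Select transcript for 58 of the 59 genes. Members, role groups and other lists were chosen with earlier results of these data known. Every member is named. Full values are given for snoRNP, nucleolar organiser and PeBoW genes, UTP14A and UTP14C, the 3 largest calls of each other role group and the genes next to the threshold. Of each other list, the 2 largest calls are named. A further marker of the line is not reported here.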

Additional observations from a re-analysis of the deposited data

How the results depend on the processing

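With DESeq2 34 assembly factors were called lower (17.3% of all genes), with edgeR's exact test 36 (19.7%), with total counts 10 and at FDR under 0.05 41 (23.8%). Leaving out 1 library gave 4 to 29. Under limma-trend, other scalings and filters the count was 17 to 23. In every setting 0 were called higher, and the median stayed between -0.60 and -0.36. Over all genes, the exact test called 2497 lower and 2596 higher, FDR under 0.05 gave 3011 and 3093, and leaving out 1 library gave 850 to 2024 lower and 775 to 1971 higher. The reported test called 1581 lower and 1630 higher, and total counts gave 1166 and 2363. The labels number replicates but name no shared batch, and the differences between replicates 1 and 2 of the groups correlated at r = 0.403 over genes. A replicate block gave 46 assembly factors lower, 4 of the 6 later small subunit factors among them, and 2715 lower and 2742 higher over all genes. Genes near 0 changed sign without a call. With total counts IMP4 was at 0.04, NMD3 0.06, NOP10 0.02, WDR74 0.07 and RRP8 0.12. RRP8 was at 0.00 under limma-trend and the replicate block, 0.02 under upper quartile, 0.03 under loess and 0.01 with a mean of at least 100. Leaving out 1 library gave -0.37 to 0.06 for GNL3L, -0.19 to 0.02 for IMP4, -0.13 to 0.13 for RRP8 and -0.12 to 0.02 for WDR74, with 0.01 in WDR74 without shYEATS2 replicate 2. The causes were not tested. With 2 libraries a group, the median SE of a log2 fold change was 0.13 for the assembly factors, which limits calls on small changes.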
